A study of Mus musculus with 20 samples.

Results

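Srsf5, Sf3b1, Eif4g2, Kdm4a and Otud4 are 5 of the 46329 gene rows counted in every library, and 7119 rows, these 5 among them, passed a filter on low counts and were tested. The 5 were chosen by their counts in the colorectal tissue next to tumors, which were higher in Erbb2-deficient mice than in controls. That difference selected the rows, so it is described here without a test. The 20 libraries came from C57BL/6J mice aged 100 days that all carried ApcMin/+, an allele that predisposes to intestinal tumors, and Erbb2f/f, a floxed gene for the receptor tyrosine kinase ERBB2. Erbb2-deficient mice also carried Tg(Vil1-cre), a recombinase driven by the Villin promoter in intestinal epithelium, so that other cells of the tissue keep the floxed gene intact. Littermate controls had no cre. One label calls them wild type although they carry ApcMin/+ and Erbb2f/f. Each genotype gave 5 colorectal tumors and 5 samples labelled adjacent non-tumor epithelium, and the labels do not say whether a tumor and an adjacent sample with the same number come from 1 mouse.

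Splicing removes introns from new transcripts. SR proteins such as SRSF5 bind exons and help the spliceosome find splice sites, and SF3B1 is the large subunit of the complex with which the U2 particle recognises the branch point of an intron. Translation of most mRNAs begins when a scaffold of the EIF4G family joins the cap-binding protein and a helicase to the ribosome. EIF4G2 is a family member that lacks the site for the cap-binding protein and serves initiation on selected mRNAs. KDM4A is a demethylase of histone H3 lysines, and OTUD4 is a deubiquitinase of the OTU family. The colonic epithelium renews itself continuously from crypt stem cells, and loss of Apc in ApcMin tumors switches on Wnt signalling there.

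What a row measures is limited in these files. Gene rows held 1071737 to 1944309 counts per library, 2.51% to 3.45% of all reads, while 78.6% to 85.1% of reads lay on no counted feature. Rows whose exons are overlapped by exons of a gene transcribed the other way, 6686 of the 46329, held 49.3% to 57.2% of the counts of a library, so that the rows appear to be counted on the opposite strand to their genes. None of the 5 rows had such an exon in the annotation used. Sf3b1, Eif4g2 and Otud4 had no gene on the opposite strand over them or within 1000 bases. Srsf5 had the non-coding gene Gm20337 there, which starts on the opposite strand 103 bases before it, and Kdm4a had the small nucleolar RNA gene Gm23382. Antisense RNA and reads of the gene itself that were assigned to the wrong strand cannot be told apart in these 5 rows. Each symbol below therefore stands for a row, and a higher row is not a measured rise of the gene's mRNA.

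The upstream sequences of 3 of the genes are shown because the promoter of Srsf5 has a second, divergent start and because the rows differ in how CpG-rich their promoters are. Each is the 250 bases before the gene's start in RefSeq (build GRCm38.p6), 5′ to 3′ on the gene's strand. Capitals mark GC boxes (GGGCGG, or CCGCCC where it lies on the other strand) and ETS cores (CCGGAAG, or CTTCCGG). The windows are chr12:80945249-80945498 (plus strand) for Srsf5, chr1:55027479-55027728 (minus strand) for Sf3b1 and chr8:79639426-79639675 (plus strand) for Otud4.
Srsf5: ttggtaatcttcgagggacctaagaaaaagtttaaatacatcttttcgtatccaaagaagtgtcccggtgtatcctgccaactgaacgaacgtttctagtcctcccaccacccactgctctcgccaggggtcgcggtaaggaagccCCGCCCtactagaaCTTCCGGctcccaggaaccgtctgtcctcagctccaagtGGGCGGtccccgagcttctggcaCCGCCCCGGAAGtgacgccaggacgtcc
Sf3b1: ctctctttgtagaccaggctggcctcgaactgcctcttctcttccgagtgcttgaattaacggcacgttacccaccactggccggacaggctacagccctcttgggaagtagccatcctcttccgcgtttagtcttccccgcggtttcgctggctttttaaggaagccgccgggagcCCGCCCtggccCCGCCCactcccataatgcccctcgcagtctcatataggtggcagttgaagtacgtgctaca
Otud4: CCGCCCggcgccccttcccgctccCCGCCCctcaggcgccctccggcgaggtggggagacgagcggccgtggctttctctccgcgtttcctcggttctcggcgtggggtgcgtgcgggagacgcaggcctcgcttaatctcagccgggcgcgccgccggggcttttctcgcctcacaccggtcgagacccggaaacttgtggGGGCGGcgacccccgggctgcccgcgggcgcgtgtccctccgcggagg
The Srsf5 window held 3 GC boxes and 2 ETS cores, 1 of which overlaps a GC box, and Gm20337 starts at base 148 of it on the other strand. Sf3b1 had 2 GC boxes and Otud4 had 3. The window of Kdm4a held 1 CCAAT box (CCAAT) and no GC box, and Eif4g2 was not among the matched entries. On either strand, a GC box occurred in 32.7%, a CCAAT box in 33.8% and an ETS core in 6.91% of 32851 such windows. The letters TATAAA, present in 12.4% of windows, were in none of the 4. Otud4 had 38 CpG dinucleotides, more than 98.1% of the windows, against 17 for Srsf5, 16 for Sf3b1, 12 for Kdm4a and a median of 6. These matches describe letters and do not show that a factor binds.

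The 5 rows had few counts, from 0 to 126 in a library, and levels are given as CPM, the count scaled to the library's total over tested rows with TMM factors. The filter asked for about 7.95 CPM, before scaling, in at least 5 libraries. Otud4 reached it in exactly 5, of which 4 were Erbb2-deficient adjacent libraries and 0 were controls, so it was tested only through the group in which it is high. Srsf5 also reached it in 0 control libraries, Sf3b1 in 1, Eif4g2 in 2 and Kdm4a in 4 of 10.

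**Figure D1:**
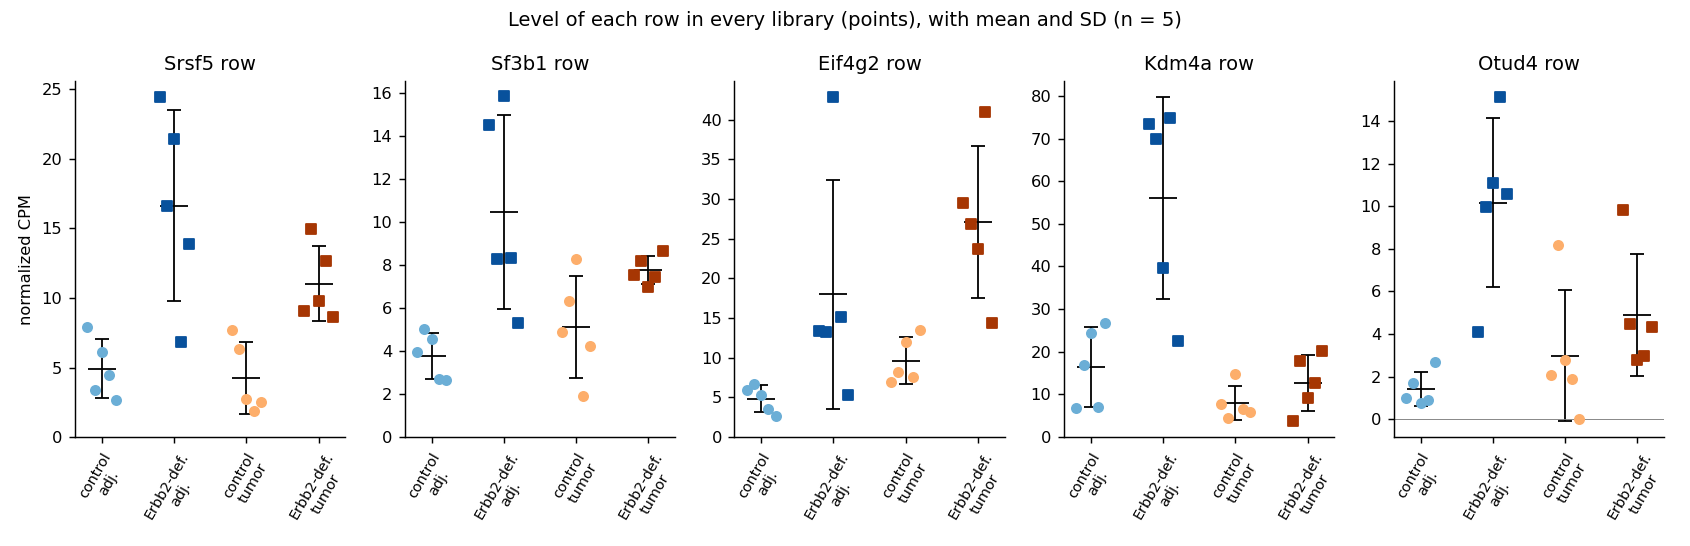
Normalized CPM of the 5 rows (1 panel each, with its own linear axis) in all 20 libraries, by genotype and tissue; points are libraries, bars the mean and SD of 5. Erbb2-deficient adjacent libraries are highest in 4 panels and Erbb2-deficient tumors in the Eif4g2 panel, by their means.

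Srsf5 was higher in Erbb2-deficient than in control libraries of both tissues. In control adjacent samples 1 to 5 it had 7.90, 3.36, 6.12, 4.48 and 2.67 CPM, from 3 to 8 counts. In Erbb2-deficient adjacent samples it had 24.4, 16.6, 21.4, 6.81 and 13.9 CPM, from 9 to 42 counts. Erbb2-deficient adjacent 4 lay below control adjacent 1, and the other 4 lay above every control. Control tumors had 7.68, 6.35, 2.76, 1.90 and 2.54 CPM, and Erbb2-deficient tumors 9.07, 14.9, 9.78, 12.7 and 8.65 CPM. The tumor groups did not overlap. By mean the order was Erbb2-deficient adjacent (16.6 ± 6.85 CPM, SD, n = 5), Erbb2-deficient tumor (11.0 ± 2.69), control adjacent (4.91 ± 2.12) and control tumor (4.25 ± 2.59), and the neighbours of equal genotype differed by less than their larger SD.

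Sf3b1 was higher in Erbb2-deficient adjacent tissue and had a small spread in Erbb2-deficient tumors, with 10 to 12 counts in all 5. Control adjacent samples had 3.95, 5.04, 4.59, 2.69 and 2.67 CPM and Erbb2-deficient adjacent samples 14.5, 8.31, 15.9, 8.32 and 5.29 CPM. The adjacent groups did not overlap, although Erbb2-deficient adjacent 5 lay only just above control adjacent 2. Control tumors had 4.89, 6.35, 8.28, 1.90 and 4.24 CPM. Erbb2-deficient tumors had 7.56, 8.21, 6.98, 7.44 and 8.65 CPM. Control tumor 3 lay within the range of the Erbb2-deficient tumors, and the other 4 lay below it. The mean ran from 10.5 ± 4.53 CPM in Erbb2-deficient adjacent tissue over 7.77 ± 0.657 and 5.13 ± 2.38 CPM in Erbb2-deficient and control tumors to 3.79 ± 1.08 CPM in control adjacent tissue. Of the neighbours in this order, only the tumor groups were farther apart than the larger of their SDs.

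Eif4g2 differed from the other rows in that its level was highest in Erbb2-deficient tumors. These had 29.5, 26.9, 23.7, 40.9 and 14.4 CPM, and control tumors 6.98, 8.17, 12.0, 7.62 and 13.6 CPM. The groups did not overlap, with Erbb2-deficient tumor 5 just above control tumor 5. In adjacent tissue controls had 5.92, 6.72, 5.35, 3.58 and 2.67 CPM and Erbb2-deficient samples 13.4, 13.3, 42.9, 15.1 and 5.29 CPM. Erbb2-deficient adjacent 3, with 54 counts, stood far above its group, and Erbb2-deficient adjacent 5 lay within the control range. The means were 27.1 ± 9.61 CPM in Erbb2-deficient tumors, 18.0 ± 14.4 in Erbb2-deficient adjacent tissue, 9.66 ± 2.92 in control tumors and 4.85 ± 1.68 in control adjacent tissue. Of the neighbours in this order, only control tumor and control adjacent tissue were farther apart than the larger of their SDs.

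Kdm4a had the highest counts of the 5 and was the one of them that passed the test between tissues. Control adjacent samples had 6.91, 16.8, 24.5, 7.17 and 26.7 CPM and Erbb2-deficient adjacent samples 73.3, 69.8, 39.7, 74.9 and 22.5 CPM. Erbb2-deficient adjacent 5 fell within the control range. Control tumors had 7.68, 4.54, 14.7, 6.66 and 5.93 CPM. Erbb2-deficient tumors had 3.78, 17.9, 9.08, 12.7 and 20.2 CPM, with broad overlap. The means fell from 56.0 ± 23.6 CPM in Erbb2-deficient adjacent tissue over 16.4 ± 9.31 in control adjacent tissue and 12.7 ± 6.63 in Erbb2-deficient tumors to 7.91 ± 3.98 in control tumors. The lower 3 groups were each within 1 SD of their neighbour.

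Otud4 was close to the counting limit outside Erbb2-deficient adjacent tissue. Control adjacent samples had 1, 2, 1, 1 and 3 counts, and Erbb2-deficient adjacent samples 7, 12, 14, 20 and 16 counts, or 4.07, 9.97, 11.1, 15.1 and 10.6 CPM. These groups did not overlap. Control tumors had 3, 9, 3, 2 and 0 counts and Erbb2-deficient tumors 13, 6, 4, 4 and 6 counts, and control tumor 2 and Erbb2-deficient tumor 1 stood above the rest of their groups. The means were 10.2 ± 3.97 CPM in Erbb2-deficient adjacent tissue, 4.88 ± 2.87 and 2.99 ± 3.07 in Erbb2-deficient and control tumors, and 1.40 ± 0.793 in control adjacent tissue. The last 3 were within 1 SD of their neighbours.

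In adjacent tissue the fitted log2 fold changes of Erbb2-deficient over control, from edgeR's quasi-likelihood model with all 20 libraries, were 1.75 ± 0.41 SE for Srsf5, 1.44 ± 0.39 for Sf3b1, 1.86 ± 0.47 for Eif4g2, 1.76 ± 0.45 for Kdm4a and 2.77 ± 0.69 for Otud4. Among rows higher in Erbb2-deficient adjacent tissue, ordered by p, they stood at places 1 (Otud4), 2 (Srsf5), 3 (Eif4g2), 6 (Kdm4a) and 7 (Sf3b1). Places 4 and 5 were held by the predicted genes Gm15500 and Gm13456. Just outside, at place 8, was Ppig, a cyclophilin, at 0.85 ± 0.22 SE. Of the 5 rows, Sf3b1 and Otud4 had all 5 Erbb2-deficient above all 5 control libraries, as had 0.730% of the tested rows, and nothing is read from that count because this contrast chose them. The edgeR test called 0 rows of 7119 in this contrast (0%) at an adjusted p of 0.05, and 418 (5.87%) had an unadjusted p under 0.05. DESeq2 called 5. Without Erbb2-deficient adjacent 3, the log2 fold change of Eif4g2 was 1.24.

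The genotype difference in tumors did not enter the choice of the rows, though a tumor may come from the same mouse as an adjacent sample. Tumors did help the rows through the filter on low counts. Kdm4a reached it in 5 Erbb2-deficient adjacent libraries, while Srsf5, Sf3b1, Eif4g2 and Otud4 reached it in 3 or 4 of them and in 1 to 5 Erbb2-deficient tumors. With adjacent libraries alone, only Kdm4a of the 5 passed the filter. In the genotype comparison of tumors none of the 5 rows passed. The edgeR test called 0 of 7119 rows (0%) in it, with 817 (11.5%) at an unadjusted p under 0.05. DESeq2 called 26. For Eif4g2 the fitted difference was 1.48 ± 0.43 SE on the log2 scale (edgeR adjusted p = 0.196), with all Erbb2-deficient tumors above every control tumor. For Srsf5 it was 1.32 ± 0.43 SE (edgeR adjusted p = 0.228), again with all Erbb2-deficient tumors above the controls. Of the 5 rows these 2 had no overlap between tumor groups (0.927% of tested rows in this direction) and an unadjusted edgeR p under 0.05 (3.50% of tested rows in this direction). Both reached the filter in all 5 Erbb2-deficient tumors, and Srsf5 in 0 control libraries, so that nothing is read from these counts against the shares of all rows.

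For the other 3 rows the tumor difference was smaller than or close to the spread between libraries. The log2 fold change was 0.59 for Sf3b1 (95% interval -0.19 to 1.37, edgeR adjusted p = 0.582), 0.68 for Kdm4a (-0.35 to 1.71, adjusted p = 0.640) and 0.71 for Otud4 (-0.56 to 1.97, adjusted p = 0.701). Single libraries decided the Otud4 value, which was 0.29 without Erbb2-deficient tumor 1 and 1.48 without control tumor 2. All 5 fitted values lay above 0, as did 49.1% of all tested rows. Control tumor 2 had 15.4 CPM over the epithelial marker rows and 264 CPM over the immune ones, against 230 to 607 and 10.2 to 38.7 CPM in the other tumors. Control tumor 3 had the highest smooth muscle sum of the tumors, 515 CPM, which includes rows with an exon opposite. Without both, the values were 1.40 for Srsf5, 1.07 for Sf3b1, 1.56 for Eif4g2, 0.94 for Kdm4a and 1.81 for Otud4, and none passed (edgeR adjusted p at least 0.572). The 7 epithelial rows and the 4 tested fibroblast rows (of 6) all had fitted genotype values above 0 in tumors, with medians of 0.77 and 1.05 and 0 called. The fibroblast rows summed to 16.3 to 71.9 CPM in control and 46.1 to 161 CPM in Erbb2-deficient tumors. The part of either list in these differences was not tested.

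**Figure D2:**
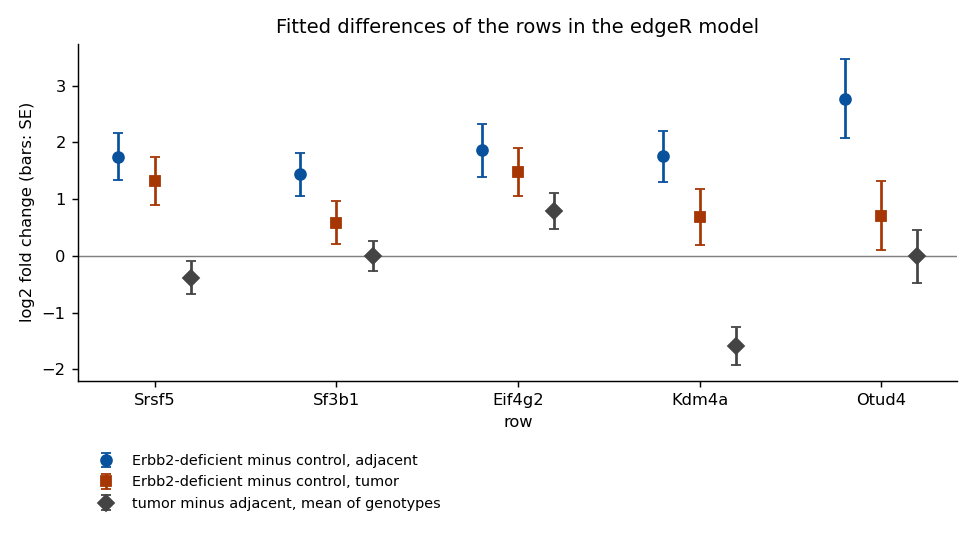
Fitted log2 fold changes of the 5 rows with their SE, for genotype in adjacent tissue (circles), genotype in tumors (squares) and tumor minus adjacent averaged over genotypes (diamonds). Genotype values lie above 0 in both tissues for each row, and the tissue value lies well below 0 only for Kdm4a, at -1.59.

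The tissue comparison averaged tumor minus adjacent over the genotypes with equal weight, so that the adjacent genotype difference itself cancels. The adjacent libraries that chose the rows still enter it. Their part in the choice cancels fully only where both adjacent groups spread alike. For Kdm4a these had 56.0 ± 23.6 CPM (Erbb2-deficient) and 16.4 ± 9.31 CPM (control). The tissue p-values and their alternatives carry that limit. Kdm4a fell in tumors by 1.59 ± 0.33 SE on the log2 scale, to 0.332 times the adjacent level (edgeR adjusted p = 0.000718). It was 1 of the 5 rows called lower, and 20.9% of the tested rows were called lower and 21.0% higher. The call held in all alternatives run, 20 that left out a library and 10 others, with values from -1.72 to -1.44 (edgeR or DESeq2 adjusted p 6.07e-06 to 0.0179). The fall was -1.06 ± 0.49 SE in controls and -2.13 ± 0.45 in Erbb2-deficient mice. These single values share the adjacent libraries with the choice of rows and were not tested. In bulk tissue, fewer cells of a type and less RNA per cell cannot be told apart.

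Smooth muscle rows moved with the tissues as Kdm4a did. All 8 tested rows of the smooth muscle marker list fell in tumors (all tested rows: 20.9%). Their summed level was 1067 to 2516 CPM in control and 1047 to 1381 CPM in Erbb2-deficient adjacent samples, against 160 to 515 and 161 to 251 CPM in the tumors. Of the 8 rows 3 have an exon opposite, among them Smtn and Tagln, the highest of the list. These 2 averaged 884 and 464 CPM in control adjacent samples and 5.18 and 233 CPM in control tumors, so the sums may include reads of the genes opposite. The goblet cell list fell in 4 of 5 rows (all tested rows: 20.9%) and ranged from 179 to 830 CPM in adjacent samples and from 0 to 556 CPM in tumors. The epithelial rows (7 of 7 tested, 1 higher and 0 lower in tumors) summed to 249 to 365 CPM in control and 247 to 590 CPM in Erbb2-deficient adjacent samples and to 15.4 to 607 CPM in tumors. Of the fibroblast rows 2 of 4 rose and 0 fell in tumors. Over all tested rows 21.0% were called higher, the share to set beside this count and the epithelial one. Of the immune rows 2 of 10 were tested, of which 1 fell, Ms4a1 (edgeR adjusted p = 0.0178). Of the endothelial and neural rows 0 were tested. The part of these cell types in the Kdm4a result was not tested. In adjacent tissue 6 of 7 epithelial and 0 of 8 smooth muscle rows had a fitted genotype value above 0, with medians of 0.44 and -0.37. Of the goblet, fibroblast and immune rows 5 of 5, 0 of 4 and 2 of 2 did, with medians of 0.57, -0.43 and 0.50. Over all tested rows it was 51.0%, and 62.4% of those with no gene opposite. In each list 0 were called.

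Eif4g2 lay just outside the threshold between tissues, at 0.78 ± 0.32 SE higher in tumors (edgeR adjusted p = 0.0503). It passed in 5 of 10 alternatives of scaling, filter, test or covariate and in 6 of 20 that left out 1 library, with adjusted p from 0.00252 without Erbb2-deficient adjacent 3 to 0.858 with the share of reads on no feature as a covariate. With that covariate the value itself was 0.12. Srsf5 at -0.38 ± 0.30 SE (edgeR adjusted p = 0.317) did not pass. Nor did Sf3b1 at -0.0036 ± 0.27 (95% interval -0.56 to 0.56) or Otud4 at -0.0071 ± 0.46 (-0.97 to 0.95). The sign of these last 2 rows turned in several alternatives.

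The share of reads on no feature was set beside the rows as a possible mark of library quality. If rows are counted on the opposite strand, reads of the genes themselves fall into this share. Among uniquely placed reads it was 95.7% to 97.1%. Whether the share follows quality was not tested, so fits with it as a covariate are no control for quality. The values below are shares of all reads. It was 81.2% ± 2.35 (SD, n = 5) in Erbb2-deficient and 81.0% ± 1.65 in control adjacent samples (difference 0.143 percentage points, exact permutation test, two-sided, p = 0.944). In tumors it was 84.4% ± 0.550 and 83.6% ± 0.980 (exact permutation p = 0.127, adjusted over 4 comparisons 0.169). Tumors had higher shares than adjacent samples by 2.53 percentage points in controls (exact permutation p = 0.0317, adjusted 0.0635) and 3.20 in Erbb2-deficient mice (exact permutation p = 0.0238, adjusted 0.0635). With the share as a covariate, the fitted genotype differences in adjacent tissue were 1.72 for Srsf5, 1.44 for Sf3b1, 1.76 for Eif4g2, 1.77 for Kdm4a and 2.69 for Otud4. The value of Eif4g2 moved most, from 1.86 to 1.76.

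Within a tissue, with both genotypes pooled, no relation of a row with the share passed the permutation test after adjustment. Over the 10 adjacent libraries Pearson's r with log2 CPM was -0.15 for Srsf5, 0.13 for Sf3b1, 0.38 for Eif4g2, -0.02 for Kdm4a and 0.18 for Otud4, with Spearman's rho between -0.15 and 0.28. No permutation p was under 0.284, and the adjusted values of r over 10 relations were 0.881 to 0.946. The genotype difference that chose the rows is part of their spread here. These values of r therefore do not measure the relation within a genotype. Over the 10 tumors r was 0.11 for Srsf5, 0.41 for Sf3b1, -0.05 for Kdm4a and 0.31 for Otud4, and their permutation p-values were at least 0.213. Eif4g2 gave the closest relation within a tissue, with r = 0.66 and rho = 0.70 in tumors (permutation p = 0.0254 and 0.0302, adjusted 0.254 and 0.302). Without the 2 tumors farthest from the median share, Erbb2-deficient tumor 1 and control tumor 1, its r was 0.51 (exact permutation p = 0.2). Without control tumors 2 and 3 its r was 0.77 (exact permutation p = 0.0161, adjusted 0.161). Over all 20 libraries with group means removed, r of Eif4g2 was 0.50 (permutation p = 0.0992, adjusted over 5 relations 0.496) and its rho 0.49 (p = 0.118, adjusted 0.296). Srsf5 then had r = -0.37 (permutation p = 0.202, adjusted 0.505) and rho = -0.51 (p = 0.0633, adjusted 0.296). For Sf3b1, Kdm4a and Otud4 r was 0.16, -0.13 and 0.22. The Erbb2-deficient tumors were higher in Eif4g2 and, on average, in the share.

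**Figure D3:**
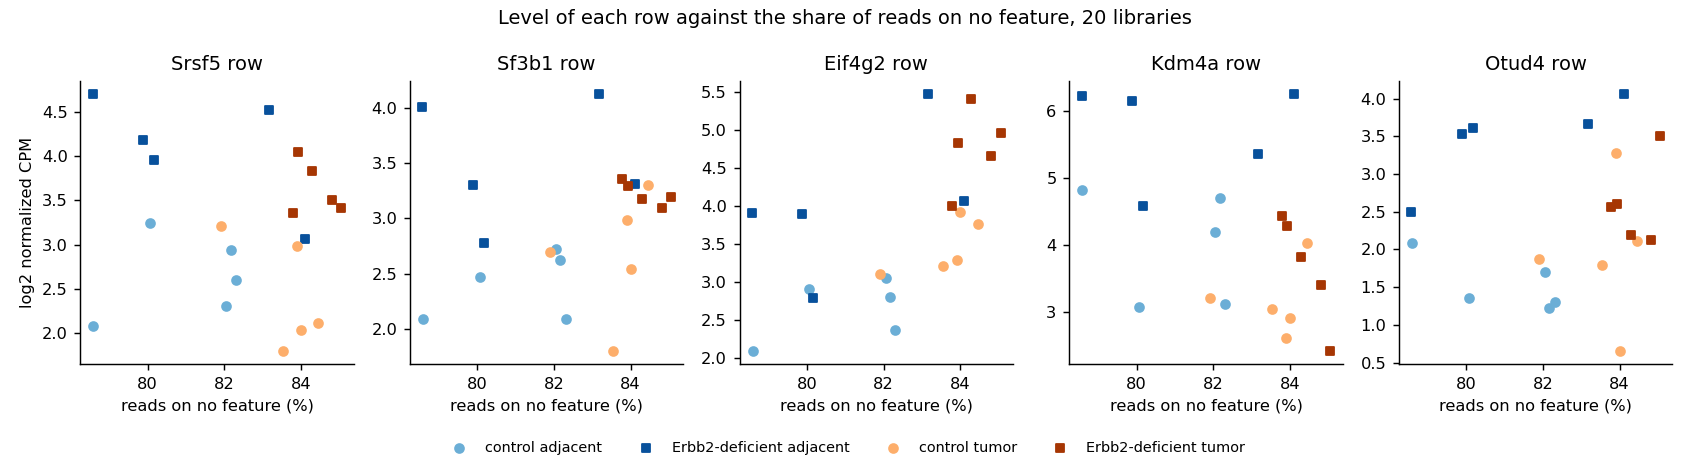
Log2 normalized CPM of each row against the percentage of reads on no feature in the same library; 20 libraries, colored by genotype and tissue. In the adjacent libraries (blue) the Erbb2-deficient squares lie mostly above the control circles where both genotypes have libraries, from 78.6% to 82.3%.

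A library measure that did differ by genotype was the share of gene counts on rows with no gene over or near them on the opposite strand, the class of Sf3b1, Eif4g2 and Otud4. This measure was added after the values had been seen. It was 6.86% ± 0.372 (SD, n = 5) in Erbb2-deficient and 6.12% ± 0.456 in control adjacent samples (exact permutation test, two-sided, p = 0.0159, adjusted over 4 comparisons 0.0317). In tumors it was 7.21% ± 0.204 and 6.41% ± 0.506 (exact permutation p = 0.0159, adjusted 0.0317). The groups overlapped in both tissues. The median log2 fold change of the 1546 tested rows of this class was 0.15 in adjacent tissue and 0.14 in tumors, against 0.01 and -0.01 over all tested rows. With scaling factors computed from that class alone, the genotype differences in adjacent tissue were 1.56 for Srsf5, 1.24 for Sf3b1, 1.67 for Eif4g2, 1.56 for Kdm4a and 2.63 for Otud4.

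**Figure D4:**
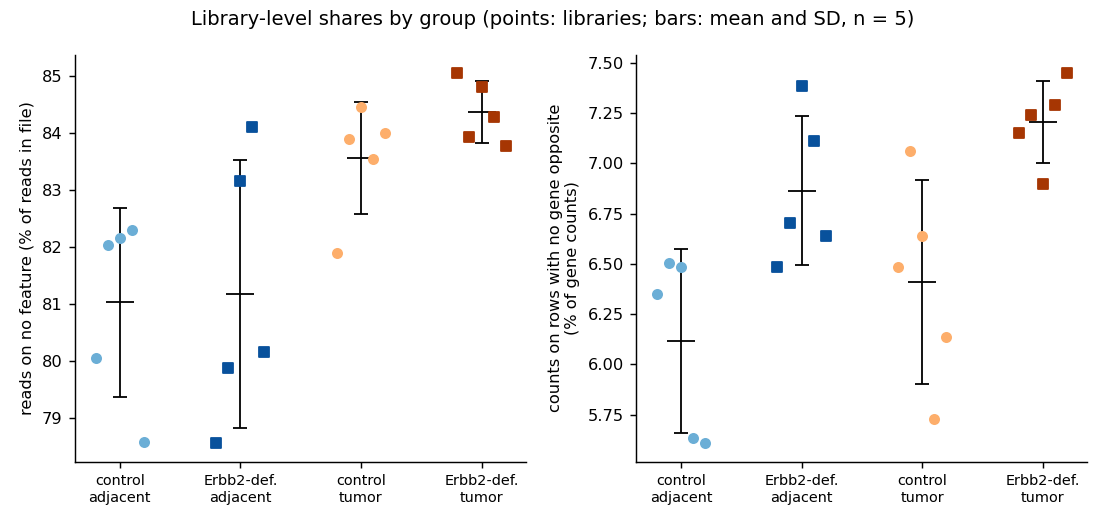
Percentage of a file's reads on no feature (left) and percentage of gene counts on rows with no gene opposite (right), by genotype and tissue; points are libraries, bars the mean and SD of 5, and neither axis starts at 0. The left share differs mainly by tissue and the right share by genotype, with 6.86% against 6.12% in adjacent samples.

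The Tsix row, which lies opposite Xist, the RNA of the inactive X chromosome of female cells, split the genotypes unevenly. It exceeded 50 CPM in control libraries 1, 2 and 3 of either tissue and among Erbb2-deficient libraries only in those with number 5. With this mark as a covariate, chosen after its values were seen, the adjacent genotype differences were 1.90 for Srsf5, 1.58 for Sf3b1, 1.57 for Eif4g2, 1.78 for Kdm4a and 2.89 for Otud4.

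The closest row to Kdm4a over the 20 libraries was that of St3gal3, the next gene on the same strand, which begins 2.04 kb beyond the end of Kdm4a and encodes a sialyltransferase. Pearson's r of log2 CPM was 0.93, given as a description, since tissue and genotype separate both rows. St3gal3 had 4, 17, 30, 9 and 14 counts in control and 90, 44, 25, 68 and 39 in Erbb2-deficient adjacent samples. In tumors it had 4, 1, 21, 3 and 2 counts in controls and 3, 11, 5, 7 and 31 in Erbb2-deficient mice. As with Kdm4a counts, Erbb2-deficient tumor 5 and control tumor 3 were the highest of their groups and Erbb2-deficient adjacent 1 the highest of all. St3gal3 fell in tumors by 1.67 ± 0.47 SE on the log2 scale averaged over genotypes (edgeR adjusted p = 0.00723), and its genotype difference in tumors was 0.61 ± 0.71 SE (adjusted p = 0.806). The neighbour on the other side, the phosphatase gene Ptprf, lies 28.2 kb away on the same strand. It averaged 8.27 and 14.6 CPM in control and Erbb2-deficient adjacent samples and did not pass between tissues (-0.03 ± 0.31 SE, edgeR adjusted p = 0.947).

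**Figure D5:**
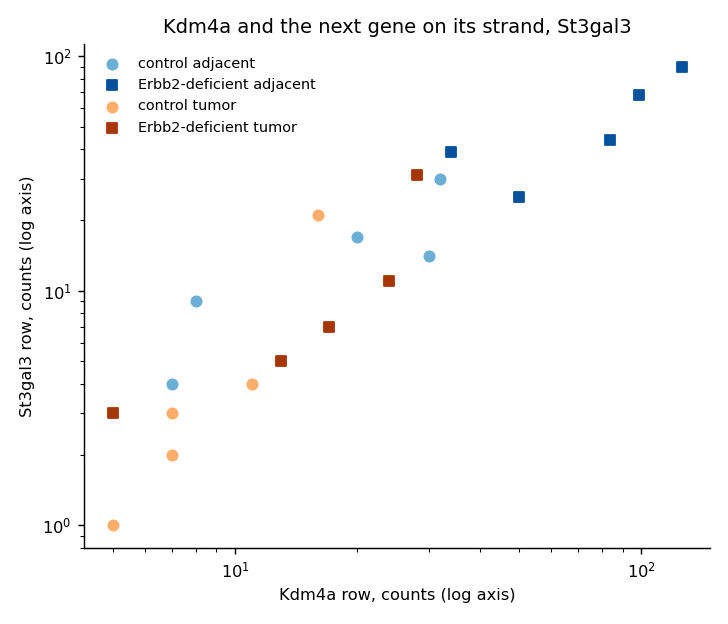
Counts in the Kdm4a row against counts in the row of St3gal3, its neighbour on the same strand, in 20 libraries; both axes are logarithmic and colors give genotype and tissue. The 5 Erbb2-deficient adjacent libraries have the highest Kdm4a counts, 34 to 126, with 25 to 90 St3gal3 counts.

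The other rows closest to Kdm4a were Mxd1, a repressor of the MYC network (r = 0.83), and Vdr, the vitamin D receptor (r = 0.82), both without a gene opposite. Vdr averaged 8.66 and 19.8 CPM in adjacent samples of control and Erbb2-deficient mice. Srsf5 was closest to the ribosomal protein gene Rpl7 (r = 0.83), the actin-nucleating subunit Arpc3 (0.81) and the ATP synthase subunit Atp5b (0.81). Sf3b1 was closest to the taurine transporter Slc6a6 (0.85, with an exon opposite), Rpl7 (0.80) and Tpt1 (0.80). Eif4g2 was closest to the initiation factor subunit Eif3a (0.85) and to Dsg2 and Ctnnb1, a desmosomal cadherin and beta-catenin (0.85 each, both with an exon opposite). Otud4 was closest to Eif3f (0.73), Nfe2l2 (0.72) and Zmynd11 (0.71). Among the 5 rows r ran from 0.10 between Eif4g2 and Kdm4a to 0.76 between Srsf5 and Sf3b1. The points share libraries and groups.

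Gm20337, divergent from Srsf5, had 0 to 8 counts, with means of 3.05 and 3.82 CPM in control and Erbb2-deficient adjacent samples and 1.30 and 0.444 CPM in tumors, and was not tested. Slc10a1, a bile acid transporter gene 2.67 kb beyond Srsf5 on the opposite strand, averaged 12.3 and 8.46 CPM in control and Erbb2-deficient adjacent samples. Ctr9, a transcription elongation factor gene on the opposite strand 11.4 kb beyond Eif4g2, averaged 13.7 and 14.3 CPM in adjacent samples. It rose in tumors by 0.70 ± 0.22 SE on the log2 scale (edgeR adjusted p = 0.0148). Abce1, beside Otud4, had 0 to 7 counts.

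The relatives of the 5 genes gave no call between genotypes in tumors, and between tissues they gave calls in both directions. Over all tested rows 21.0% were called higher and 20.9% lower in tumors, and nothing particular to a list is read from its counts. The lists hold the 5 rows themselves and also rows that passed the filter only where they are high. Of 13 SR protein rows 8 were tested, of which 1 rose and 0 fell in tumors (all tested rows: 21.0% and 20.9%). The riser was Srsf1, at 43.1 and 38.8 CPM in control and Erbb2-deficient adjacent samples and 66.3 and 63.1 CPM in tumors (0.66 ± 0.18 SE on the log2 scale, edgeR adjusted p = 0.00480). Srsf4, with the highest counts, had -0.29 ± 0.13 SE (adjusted p = 0.0776). The median genotype difference of this list was -0.08 in tumors and 0.13 in adjacent tissue. Of the kinases that phosphorylate SR proteins 4 of 6 were tested, 1 rose (Clk3, 0.55 ± 0.15 SE, adjusted p = 0.00443) and 0 fell. Srpk2 had -0.10 ± 0.18 (edgeR adjusted p = 0.683). Srsf1, Srsf4, Clk3 and Srpk2 all have an exon opposite.

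Of the 16 rows for U2 and SF3 subunits 5 were tested, of which 2 rose and 1 fell in tumors. U2af2, which recognises the polypyrimidine tract, rose by 0.52 ± 0.15 SE on the log2 scale (edgeR adjusted p = 0.00920). Sf3b3, a partner of SF3B1 in its complex, fell by 1.73 ± 0.41 SE on the log2 scale (adjusted p = 0.00216), in a row with an exon opposite. Of 19 hnRNP rows 16 were tested, with 6 higher and 2 lower in tumors, beside 21.0% and 20.9% of all tested rows. The 2 with the highest counts went opposite ways, Hnrnpab at 0.65 ± 0.13 SE (adjusted p = 0.000332) and Hnrnpu at -0.46 ± 0.10 SE (adjusted p = 0.000686), both with an exon opposite.

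Translation initiation was the list with most tested rows, 20 of 36, of which 7 rose and 0 fell in tumors, where 21.0% and 20.9% of all tested rows did. Eif4a2, a helicase that works with the EIF4G scaffolds, had 0.49 ± 0.16 SE (edgeR adjusted p = 0.0181), and Eif5b, which joins the ribosomal subunits, 0.18 ± 0.14 SE (adjusted p = 0.329). Both have an exon opposite. Eif4g1 and Eif4g3, relatives of Eif4g2 that do bind the cap-binding protein, were named after their values were seen. They rose by 0.71 and 0.69 on the log2 scale (adjusted p = 0.00577 and 0.00480). Between genotypes 18 of 20 rows had a fitted value above 0 in tumors and 18 of 20 in adjacent tissue, with medians of 0.56 and 0.44, against 49.1% and 51.0% of all tested rows above 0. Only 4 of the 20 have an exon opposite, and of the tested rows with no gene opposite 59.8% and 62.4% were above 0. None of the 20 passed the test. The 20 include Eif4g2, and the adjacent values come from the contrast that chose it. Eif3f stood at place 14 in the order of that contrast. The list was also chosen with earlier results known, so nothing is read from these counts.

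Among lysine demethylases 12 of 20 rows were tested, with 3 higher and 4 lower in tumors, Kdm4a among the latter, beside 21.0% and 20.9% of all tested rows. Kdm1b (0.37 ± 0.10 SE, edgeR adjusted p = 0.00693) rose and Kdm1a (-0.91 ± 0.20 SE, adjusted p = 0.000952) fell. The median genotype difference was 0.07 in tumors and -0.14 in adjacent tissue. Of 15 OTU deubiquitinase rows 6 were tested and 1 fell, Otub1, at -1.16 ± 0.25 SE (edgeR adjusted p = 0.000866). Zranb1 had -0.37 ± 0.22 SE (edgeR adjusted p = 0.186). Kdm1b and Zranb1 have an exon opposite. Immediate early genes, which respond within minutes to handling of tissue, had 8 of 17 rows tested, with 4 higher and 1 lower in tumors. Their median genotype difference was -0.11 in adjacent tissue and 0.26 in tumors, and Egr2, the row with the highest counts, averaged 685 and 585 CPM in adjacent samples of control and Erbb2-deficient mice. Jund, the next by counts, averaged 180 and 158 CPM there. It was the row called lower in tumors (-0.65 ± 0.24 SE, edgeR adjusted p = 0.0329) and has an exon opposite.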

How the data were processed

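Polyadenylated RNA of each sample was sequenced from a stranded library, per the labels' protocols. The deposited files hold unnormalized read counts per gene symbol with 5 summary rows. Trimmomatic, HISAT2 2.2.1, HTSeq 2.0.2, DESeq2 and build mm39 are named in the submitters' processing notes. The sources used here state neither their roles nor the strand setting of counting. The summary rows entered neither library sizes nor tests, which left 2.51% to 3.45% of reads. Of 46329 rows, 18657 were at 0 in every library.

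Rows were filtered with filterByExpr (minimum count 10, 7119 kept), scaled by TMM and fitted in edgeR 4.0.16 (R 4.3.3) with a means model of 4 groups over 20 libraries, robust quasi-likelihood F tests and Benjamini-Hochberg adjustment over all tested rows at 0.05. SEs come from the model's information matrix and quasi-dispersion. Log2 CPM uses a prior count of 2. DESeq2 1.42.0 was an alternative. Correlations used 100000 permutations, or exact enumeration for 8 libraries. P-values set a difference against the spread between these libraries, which the main model treats as independent. If tumor and adjacent samples share mice, that spread is not the spread between mice. Opposite-strand genes were taken from GENCODE M21 (GRCm38), another build than the counts, for names and neighbours, with bedtools 2.31.1. Promoter windows come from RefSeq (GRCm38.p6), which had 4 of the 5 genes.

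The 5 rows and all lists were chosen with earlier results of these data known. Most genes were named by rule: the 5 rows, the 2 most abundant other tested rows per pathway list, the 3 rows most like each of the 5 (predicted genes skipped), and annotated neighbours. Others, such as Eif4g1, Eif4g3 and the Tsix row, were named outside this rule. Simulated counts with 200 changed genes recovered 9% of 2-fold and 69% of 4-fold changes in the tumor genotype comparison (6842 genes), and 53% and 92% in the tissue comparison (6846 genes).

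Same-numbered libraries were checked for pairing by their deviations from group means. The main model did not take the numbers as pairs, and a replicate block by number was run as an alternative. The Tsix row exceeded 50 CPM for the same numbers in tumor and adjacent libraries of each genotype. Whether this marks pairs was not tested.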

Additional observations from a re-analysis of the deposited data

Results flagged for a closer look

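In 24 checks of groups of 5 libraries (the 5 rows and the share of reads on no feature in each of the 4 groups), 2 groups had a library far from the others, where chance gives about 1 in 20 groups. The Eif4g2 row reached 42.9 CPM in Erbb2-deficient adjacent 3, with the next library of that group at 15.1 CPM. The Otud4 row reached 9.82 CPM in Erbb2-deficient tumor 1, from 13 counts, with the next library at 4.48 CPM.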

How the results depend on the processing

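Depth limits all 5 rows, which had 0 to 126 counts in a library. In the alternatives that gave a value, the genotype differences of the 5 rows kept their sign in both tissues, and none passed in tumors. In adjacent tissue the stable sign adds no support, because the same libraries chose the rows. With adjacent libraries alone only Kdm4a gave a value. With tumor libraries alone Sf3b1 and Otud4 gave none. The tissue call of Kdm4a held throughout. The tissue difference of Eif4g2 passed with RLE size factors (adjusted p = 0.0467), DESeq2 (0.0403), total reads as library size (0.0319), TMM from rows with no gene opposite (0.0255) and the replicate block (0.0279), and without Erbb2-deficient tumor 5, Erbb2-deficient adjacent 3, control tumors 1, 2 or 4, or control adjacent 2. Tissue differences near 0 changed sign. That of Sf3b1 was 0.0022 with RLE, 0.0013 with DESeq2, 0.052 with total reads, 0.11 with TMM from rows with no gene opposite, and -0.077 to 0.11 when 1 library was left out. That of Otud4 was 0.016 with DESeq2, 0.067 with total reads, 0.095 with that TMM and -0.39 to 0.18 when 1 library was left out, and that of Srsf5 was 0.036 with the share of reads on no feature as covariate. The cause was not tested.

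DESeq2 called 26 rows between genotypes in tumors and 5 in adjacent tissue. In adjacent tissue 1 row was called with no filter on low counts, 1 with the share as covariate, 1 without control tumors 2 and 3, and 0 to 2 when 1 library was left out. With a minimum count of 30, 1937 of 3988 tested rows were called between tissues, where Srsf5, Sf3b1 and Otud4 gave no value, and 2823 to 3642 when 1 library was left out. Fitting only the compared groups gives the same model for tissue.

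Among uniquely placed reads the tissue difference of the share shrank to 0.272 percentage points in controls and 0.418 in Erbb2-deficient mice, and the genotype difference to 0.141 in tumors and -0.00468 in adjacent tissue. Multi-placed reads, left out there, were fewer in tumors in both genotypes (exact permutation test, adjusted p = 0.0159). The genotype difference of the share of all reads in adjacent tissue was -0.591 to 0.795 when 1 library was left out. The tissue difference was then 1.92 to 2.94 in controls and 2.55 to 3.93 in Erbb2-deficient mice, and passed without control tumor 1 or Erbb2-deficient adjacent 4 (exact permutation test, adjusted p = 0.0317). Without the 2 libraries farthest from the median share, r was 0.17 for Srsf5 and -0.11 for Otud4 in adjacent tissue, and 0.13 for Kdm4a and -0.048 for Otud4 in tumors. With group means removed, r of Srsf5 was -0.37.

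Same-numbered libraries of different groups did not deviate together in all pairs (tumor and adjacent correlations -0.115 to 0.370 in controls and -0.016 to 0.228 in Erbb2-deficient mice), and 3 and 1 of 5 correlated best with their own number. The replicate block was the number alone for the genotype contrasts and the number within a genotype for tissue. The number alone joins mice of different genotype, for which the labels give no pairing. The block gave 0, 0 and 3003 called rows for genotype in tumors, genotype in adjacent tissue and tissue. The tissue difference of Sf3b1 under it was 0.023.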
